A study of Mus musculus with 16 samples.

Results

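The 43 genes described here encode the vacuolar proton pump (V-ATPase), membrane proteins of the lysosome, lysosomal enzymes that take glycans apart, and the receptors that sort such enzymes to the lysosome. The members were named by function, with earlier results of these data known, and comprised 8 subunits of the V1 sector and 7 of the V0 sector of the pump, 2 accessory proteins of the pump, 6 membrane proteins, 9 glycosidases, 5 sulfatases, 3 sorting receptors, and a group of 3 made of an acetyltransferase (Hgsnat), a peptidase (Tpp1) and progranulin (Grn). For each gene the deposited locus with the highest mean FPKM (fragments scaled by transcript length and depth) over 16 libraries was used. All 43 were found among 70603 deposited loci, and all 43 were among the 24091 loci that named a gene, had 4 or more libraries with an FPKM of at least 1, and were tested. Atp6v0d2 and Galc each had 1 group with a mean FPKM under 1.

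RNA was sequenced from aortas of ApoE-/- mice. Without apolipoprotein E these animals clear lipoproteins poorly and develop lipid-rich plaques in the artery wall. The genotype field of the labels calls the same mice an APOE knockdown, every group carried this genotype, and no wild-type group was used here. Mice entered the study at 8 weeks of age and received a normal purified diet or a Western diet, for 6 weeks (Sham6W and AS6W, 14 weeks old at the end) or for 22 weeks (Sham22W and AS22W, 30 weeks old at the end). Each of the 4 groups held 4 libraries, numbered 1 to 4 and always given in that order. The labels do not say that the libraries came from separate animals, so p-values measure the spread between these libraries, which may be technical.

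The V-ATPase is a rotary pump. Its V1 sector hydrolyses ATP in the cytosol, and its V0 sector carries protons across the membrane, so that the lumen of the lysosome becomes acidic and its hydrolases can work. Heavily glycosylated membrane proteins line the lysosome, and glycosidases and sulfatases in the lumen remove the sugars and sulfates of glycoproteins, glycolipids and glycosaminoglycans one after another. In plaque, macrophages take up modified lipoproteins and break them down in lysosomes. In bulk aorta, fewer cells of a type and less RNA per cell cannot be told apart.

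Totals of the deposited estimated counts ran from 45.25 to 81.4, in units of 1e6, per library, and small values clustered near multiples of 4, so a deposited count is not shown to be 1 fragment. Levels by library are given as counts per 1e6 counts (CPM) with library sizes adjusted by TMM, a trimmed mean of the log ratios between libraries, which compares 1 gene between libraries, and FPKM is used wherever genes are compared with each other. Differences are log2 fold changes ± SE from edgeR's quasi-likelihood test over all 16 libraries, with Benjamini-Hochberg adjustment over all 24091 loci, and a gene rose or fell where its adjusted p was under 0.05. The library codes in the labels differ between the 6 and 22 week groups, so time on diet and library series cannot be told apart. Several libraries stood apart in markers of other cell types, whose part in the results was not tested. AS6W 2 and AS6W 4 were high in the sympathetic nerve genes Th (0, 150, 0 and 104 CPM in AS6W) and Dbh, AS6W 1 in the thymocyte gene Rag1 (322, 69.2, 24.3 and 23 CPM in AS6W), AS6W 3 in the macrophage gene Adgre1 (18.5, 17.5, 212 and 20.8 CPM in AS6W), and Sham6W 2 and Sham22W 4 in the B cell gene Cd79a (18.6 and 21.6 CPM). Smooth muscle was plain in every library, with 6 contractile genes summing to 4291 to 12873 CPM.

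Per transcript length, the membrane proteins Laptm4a and Lamp1 led the set, while Laptm5, Cd63 and Lamp2 stood lower, at 16.1, 15.9 and 15.8 FPKM. Over all 16 libraries Laptm4a averaged 123 FPKM and Lamp1 112 FPKM, and Scarb2 followed with 32.8, Grn with 27.8, Atp6v0d1 with 27.3 and Sort1 with 27.1 FPKM. The lowest levels belonged to hydrolases, with Manba at 2.86, Galns at 2.49 and Galc at 1.46 FPKM. Within the V1 sector the means ran from 4.12 FPKM for Atp6v1h to 24.1 for Atp6v1f, and Atp6v1g1 stood at 21.5. Within the V0 sector the paralogs differed most at position d, where Atp6v0d1 measured 24.7, 31.3, 25 and 28.2 FPKM in Sham6W, AS6W, Sham22W and AS22W, while Atp6v0d2 measured 0.727, 1.57, 2.67 and 7.81 FPKM.

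**Figure D1:**
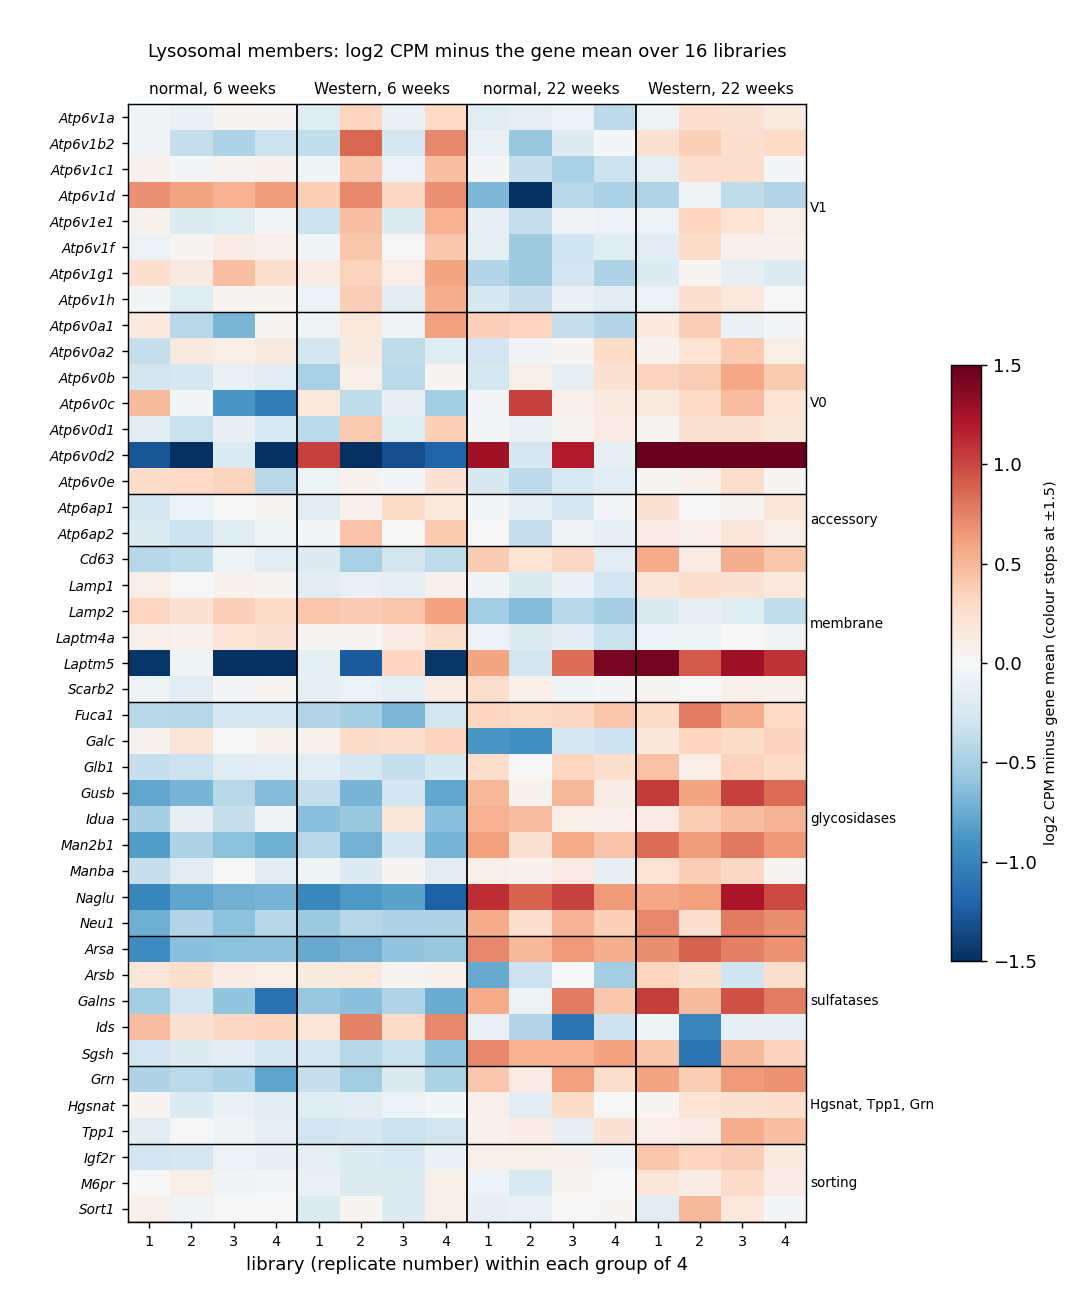
Level of each of the 43 members (rows, ordered by role) in each of the 16 libraries (columns, by group), as log2 CPM minus the gene's mean over all libraries. Without GC correction, several glycosidases, sulfatases and Grn are higher in the 22 week libraries, while Lamp2, Ids, Atp6v1d and Atp6v1g1 are lower there, and in AS6W 2 and AS6W 4 the V1 subunits stand above AS6W 1 and AS6W 3.

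Many lysosomal genes carry the E-box CACGTG near their start, as the core of the CLEAR element bound by the transcription factor TFEB and its relatives. RefSeq promoter windows (GRCm38.p6, 250 bases before to 50 after a start) were matched to 33 of the 43 members. Atp6v0a2, Atp6v0d2, Atp6v1b2, Atp6v1c1, Atp6v1g1, Atp6v1h, Galns, Hgsnat, M6pr and Sort1 were not matched. The 6 letters CACGTG, which read the same on both strands, occurred in 10 of the 33 members (30.3%) and in 8.09% of 27025 genes with a window. The longer CACGTGAC, or GTCACGTG on the other strand, which holds the first motif, occurred in 8 members (24.2%) and in 2.55% of all genes. The full palindrome GTCACGTGAC, which holds both, occurred in 1 member, Igf2r, and in 0.37% of all genes. These matches describe letters in a window and are not shown to be sites in use.

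The stretches around each match are printed because they are the part of these promoters that the family is known for, and 100 bases before the start of Galc are printed because Galc was the member that passed the diet test and its window held no copy. Each is given from 5′ to 3′ on the strand of the gene, and capitals mark CACGTG together with an adjoining GT or AC where present.
Lamp1 (chr8:13159080-13159160, plus strand): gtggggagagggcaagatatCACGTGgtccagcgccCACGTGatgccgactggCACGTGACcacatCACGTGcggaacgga
Atp6v0b (chr4:117887330-117887387, minus strand): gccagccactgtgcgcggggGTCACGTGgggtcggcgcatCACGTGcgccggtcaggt
Atp6v0d1 (chr8:105566062-105566089, minus strand): aagagccaggccctactgcgGTCACGTG
Atp6v0e (chr17:26676379-26676404, plus strand): cggggctttagcgcgccgatCACGTG
Atp6v1a (chr16:44139365-44139410, minus strand): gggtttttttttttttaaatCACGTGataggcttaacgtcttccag
Glb1 (chr9:114401008-114401055, plus strand): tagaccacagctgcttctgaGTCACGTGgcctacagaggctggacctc
Naglu (chr11:101069999-101070046, plus strand): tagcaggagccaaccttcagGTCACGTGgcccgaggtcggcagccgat
Arsa (chr15:89477425-89477462, minus strand): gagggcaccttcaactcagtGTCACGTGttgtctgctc
Sgsh (chr11:119355512-119355559, minus strand): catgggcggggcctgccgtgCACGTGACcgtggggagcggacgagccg
Igf2r (chr17:12769729-12769776, minus strand): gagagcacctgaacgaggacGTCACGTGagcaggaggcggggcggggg
Igf2r across its start, Igf2r (chr17:12769706-12769735, minus strand): gcgggggcgggccgactcagGTCACGTGAC
Galc (chr12:98259460-98259559, minus strand): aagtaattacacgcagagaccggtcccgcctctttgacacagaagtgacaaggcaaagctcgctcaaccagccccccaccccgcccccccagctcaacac
Lamp1 held 4 copies before its start and Atp6v0b held 2. At 22 weeks the 10 members with the 6 letters had a median diet difference of 0.22, with 8 positive, and the 23 matched members without them had a median of 0.22, with 21 positive.

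Whether the Western diet went with a different level of these genes was asked at each time. At 22 weeks 39 of the 43 members (90.7%) had a positive difference, against 46.1% of all loci, and their median log2 fold change was 0.25, against −0.03 over all loci. Only Galc passed, so 1 of 43 members rose, where 0.228% of all loci passed and 0.174% passed as higher. Unadjusted p was under 0.05 for 18 members, against 14.3% of all loci. DESeq2 called 6 members, namely Galc, Lamp1, Gusb, Lamp2, Arsb and Igf2r, where it called 3.44% of all loci, and limma on log2(FPKM + 0.5) called Galc alone, where it called 0.349%. In 16 members all 4 AS22W libraries lay above all 4 Sham22W libraries, where this held for 4.52% of all loci, and in 1 member, Sgsh, all lay below, where 2.99% of loci did. The 16 were 9 pump genes (Atp6v1a, Atp6v1b2, Atp6v1g1, Atp6v1h, Atp6v0b, Atp6v0d2, Atp6v0e, Atp6ap1 and Atp6ap2), Lamp1, Lamp2, Galc, Gusb, Man2b1, M6pr and Igf2r.

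At 6 weeks no member passed in edgeR, DESeq2 or limma, where 0.282%, 1.9% and 0.378% of all loci passed, and 2 members had an unadjusted p under 0.05, against 10.7% of all loci. A positive difference was seen in 27 of 43 members (62.8%), against 50.4% of all loci, with a median of 0.03 against 0.00 over all loci. The groups did not overlap for 2 members that were higher, Atp6ap2 and Lamp2 (3.19% of all loci), and for 1 that was lower, Tpp1 (4.2% of all loci). Without AS6W 2 and AS6W 4, the libraries high in nerve genes, the median became −0.06 and 19 members were positive. The median of all loci was then 0.00. This omission was chosen after the data were seen, and the same libraries were the highest of AS6W in the V1 subunits.

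The difference between the diet effects at 22 and 6 weeks passed for no member in edgeR, where 0.183% of all loci passed. Unadjusted p was under 0.05 for 7 members, against 12% of all loci. DESeq2 called 1, Lamp1, where it called 2.05% of loci, and limma called none, where it called 0.12%. The value was positive for 34 members (79.1%), against 45.1% of all loci, with a median of 0.17 against −0.05. Lamp1 had the lowest p, at 0.50 ± 0.12 (edgeR adjusted p = 0.114).

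Marker genes of other cells also differed between the 22 week groups. The 7 genes of lipid-laden macrophages (Trem2, Gpnmb, Spp1, Fabp5, Lgals3, Cd9 and Cd36) summed to 724 to 1238 CPM in Sham22W and to 1861 to 2109 CPM in AS22W, with all 7 positive, 5 not overlapping and 0 passing. The 10 general macrophage markers summed to 829 to 1435 CPM and to 1593 to 2044 CPM, with 7 positive, 1 not overlapping and 0 passing. The 1 was Lyz2, which made up much of these sums, with means of 532 CPM in Sham22W and 1031 CPM in AS22W. Contractile smooth muscle genes summed to 5605 to 11007 CPM in Sham22W and to 4291 to 7342 CPM in AS22W, with none of 6 positive. Brown fat genes (Ucp1, Cidea, Cox8b and Elovl3) summed to 380 to 1111 CPM in Sham22W and to 1270 to 3002 CPM in AS22W, with all 4 positive, and the list held the 1 marker that passed, Cox8b at 1.65 ± 0.29 (edgeR adjusted p = 0.0367). All 5 skeletal muscle genes were positive (median 3.10), with sums of 5.41 to 32.2 CPM and 25.2 to 239 CPM. The tested thymocyte and T cell genes were also all positive (5 of 5, median 1.81), with sums of 7.03 to 61.9 CPM and 27.8 to 206 CPM. Cartilage-like genes were positive in 5 of 5 (median 0.58), with sums of 99.3 to 224 CPM and 232 to 555 CPM. The B cell genes had 0 of 4 positive (median −1.25) and the nerve and Schwann cell genes 1 of 5. The part of these shifts in the members' differences was not tested.

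**Figure D2:**
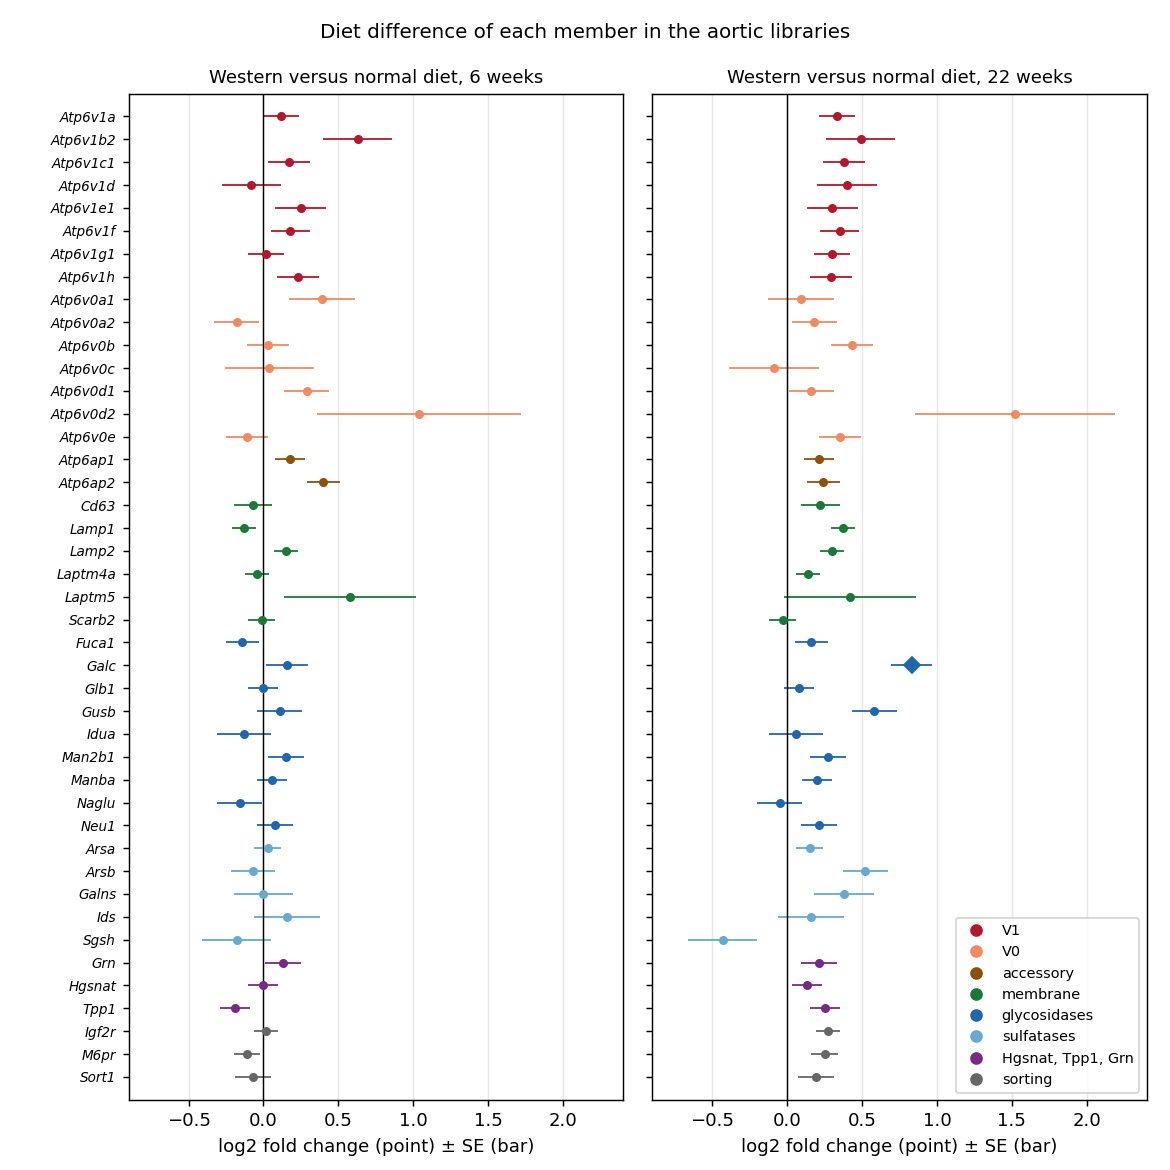
Log2 fold change of each member, Western against normal diet, at 6 weeks (left) and 22 weeks (right), with horizontal bars for ± 1 SE from edgeR and the diamond marking the member that passed. Most values at 22 weeks lie to the right of 0 (39 of 43), with Atp6v0d2 farthest right at 1.52 and Sgsh farthest left at −0.43.

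Between 6 and 22 weeks a large part of the transcriptome differed. On the Western diet 20 members rose and 4 fell, where 43.8% of all loci passed, 21.9% in each direction, and the members' median was 0.29. On the normal diet 15 members rose and 8 fell, where 46.7% of all loci passed, 24% as higher and 22.6% as lower, and the median was 0.16. On both diets 14 members rose, namely Arsa, Atp6v0d2, Cd63, Fuca1, Galns, Glb1, Grn, Gusb, Idua, Igf2r, Laptm5, Man2b1, Naglu and Neu1, and 4 fell, namely Atp6v1d, Atp6v1g1, Ids and Lamp2, of which Cd63 and Glb1 on both diets and Lamp2 on the Western diet turned in sign with a correction for GC content. Groups did not overlap for 19 members that were higher and 5 that were lower on the Western diet (20.1% and 20.4% of all loci) and for 13 and 10 on the normal diet (22.1% and 21.9%). On the FPKM scale limma moved the split to 16 higher and 9 lower on the Western diet and to 10 higher and 14 lower on the normal diet, with the median of all loci at −0.21 and −0.16 and with 48.5% and 50.4% of loci passing. The 2 time comparisons share no library, but each carries the difference in library series. The share of all loci called alike on both diets was not counted, so the counts for both diets have no background.

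The time differences followed the base composition of the transcripts. Over 15684 loci with an annotated transcript, the log2 fold change was higher at higher GC content, with Pearson's r of 0.58 on the Western and 0.59 on the normal diet, and over the 43 members r was 0.53 and 0.57, where all points share the same libraries. Over 10 equal bins of GC content the median change ran from −0.79 to 1.03 on the Western and from −0.81 to 1.13 on the normal diet. The glycosidases and sulfatases had a median GC content of 53.8%, the V1 subunits of 46.4% and all annotated loci of 49.3%. With a smooth GC curve taken out of each library, 17 members were called higher and 2 lower on the Western diet, where 28.4% of loci passed, 13.6% as higher and 14.9% as lower, and 10 higher and 8 lower on the normal diet, where 33% passed, 16.2% as higher and 16.7% as lower. Members called higher with and without the correction numbered 12 on the Western diet and 6 on the normal diet (Arsa, Atp6v0d2, Gusb, Man2b1, Naglu and Neu1), and these 6 were among the 12. Arsa, Gusb, Man2b1, Naglu and Neu1 were called higher in every alternative tried on both diets. The share of all loci called in both fits, or in every alternative, was not counted, so these counts have no background. Called with the correction alone were, as higher, Atp6v1h, Atp6ap2 and Scarb2 on both diets, Galc and Atp6v1a on the Western and M6pr on the normal diet, and, as lower, Atp6v1f on both diets and Lamp1, Atp6v0b and Cd63 on the normal diet, where Cd63 had been called higher without it. For the diet comparisons r with GC content was 0.05 at 6 and −0.03 at 22 weeks over all annotated loci, and −0.30 and −0.39 over the 43 members.

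**Figure D3:**
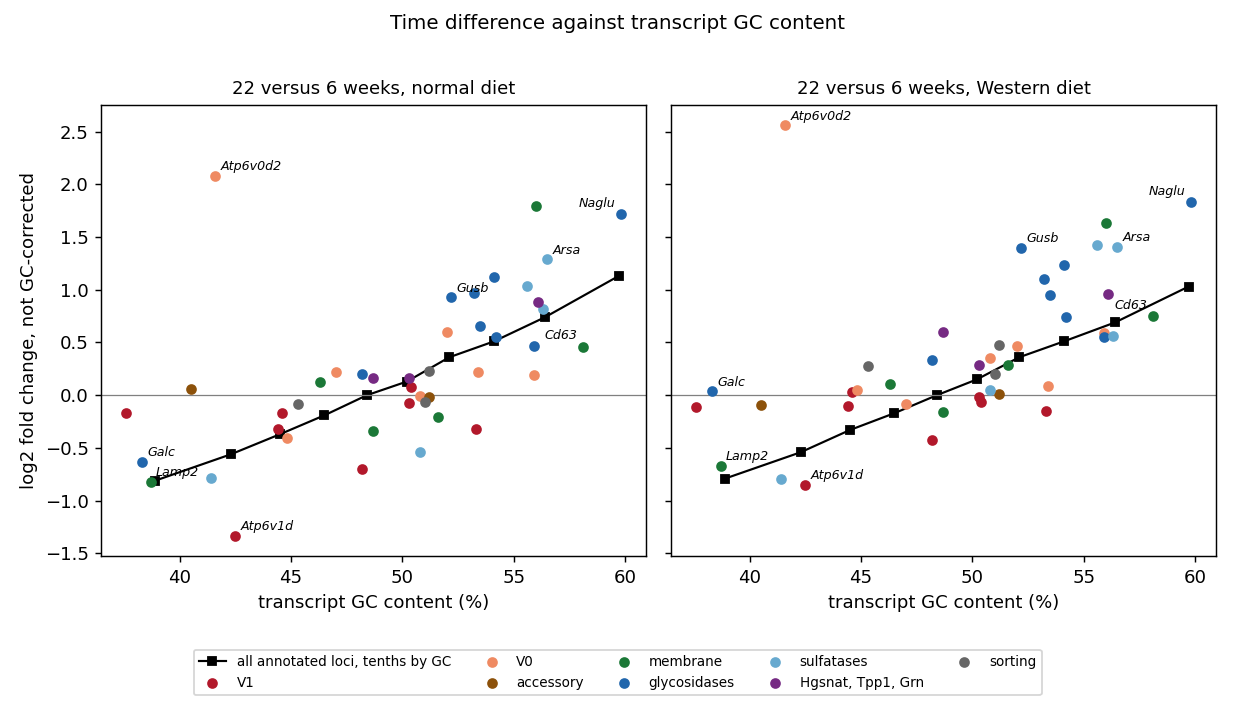
Log2 fold change of 22 against 6 weeks (no GC correction) against the GC content of the transcript in percent, on the normal and the Western diet, with the median of all annotated loci in each of 10 equal bins of GC content and the 43 members as points. The line of the bins rises with GC content, with Lamp2 (38.7%) below 0 and Naglu (59.8%) above, while Atp6v0d2 (41.6%) lies apart from it at 2.08 and 2.56.

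In the V1 sector no subunit passed a diet test. At 22 weeks all 8 differences were positive, from 0.29 to 0.49, with a median of 0.34. Atp6v1b2 (chr8:69088646-69113711), the B subunit that forms the ATP-binding ring with subunit A, measured 81.3, 59.6, 77.3 and 86.7 CPM in Sham22W and 103, 113, 105 and 108 CPM in AS22W. Every AS22W library was above every Sham22W library, and the difference was 0.49 ± 0.23 (edgeR adjusted p = 0.349). Atp6v1a (chr16:44085402-44139305), the catalytic A subunit, measured 110, 111, 115 and 93.6 CPM in Sham22W and 116, 146, 142 and 134 CPM in AS22W. Its groups did not overlap either, with 116 CPM in AS22W 1 against 115 CPM in Sham22W 3, and the difference was 0.33 ± 0.12 (edgeR adjusted p = 0.224). The regulatory subunit Atp6v1h (chr1:5070018-5162529) ranged over 39.3 to 46.7 CPM in Sham22W and 47.1 to 59.3 CPM in AS22W, also without overlap. Atp6v1c1 (chr15:38661933-38692446), which links the sectors during assembly, ranged over 29 to 39.9 against 36.7 to 48.9 CPM. The stalk subunit Atp6v1e1 (chr6:120794305-120822692) ranged over 44.5 to 55 against 54 to 71.6 CPM, and the shaft subunit Atp6v1f (chr6:29467718-29470512) over 21.9 to 29 against 28.4 to 38.5 CPM. These last 3 overlapped between the diets.

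At 6 weeks the V1 subunits split the AS6W libraries. Atp6v1b2 measured 85.6, 68.7, 64 and 70.2 CPM in Sham6W and 68.1, 160, 73.1 and 145 CPM in AS6W. AS6W 2 and AS6W 4 were above all other 6 week libraries, while AS6W 1 and AS6W 3 lay within the range of Sham6W, and the group difference was 0.63 ± 0.23 (edgeR adjusted p = 0.313). Atp6v1a showed the same order, with 119, 114, 126 and 124 CPM in Sham6W and 108, 153, 114 and 151 CPM in AS6W. As the median over the 8 subunits of log2 CPM minus the gene's Sham6W mean, AS6W 1 to 4 stood at −0.13, 0.37, −0.11 and 0.39. Above all Sham6W libraries were 7 of 8 subunits in AS6W 2 and in AS6W 4, against 0 in AS6W 1 and AS6W 3. The share of all loci above all Sham6W libraries was not counted for single libraries, so these counts have no background. AS6W 2 and AS6W 4 also carried the sympathetic nerve genes. Th measured 13.5, 0.777, 0.201 and 1.1 CPM in Sham6W and 0, 150, 0 and 104 CPM in AS6W. Dbh, which makes noradrenaline, measured 44.8, 3.04, 0.1 and 4.75 CPM in Sham6W and 0.596, 421, 0.381 and 284 CPM in AS6W. The 5 nerve and Schwann cell markers summed to 24.1 to 132 CPM in Sham6W and to 7.01 to 611 CPM in AS6W. Without AS6W 2 and AS6W 4, the median of the V1 subunits went from 0.17 to −0.11 with 0 of 8 positive. That of the 17 pump genes went from 0.18 to −0.09 with 5 positive, and Atp6v1b2 from 0.63 to −0.03. This omission was chosen after the data were seen. In every V1 subunit AS6W 2 and AS6W 4 were above AS6W 1 and AS6W 3, so the V1 values had to fall. The part of nerve tissue was not tested.

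**Figure D4:**
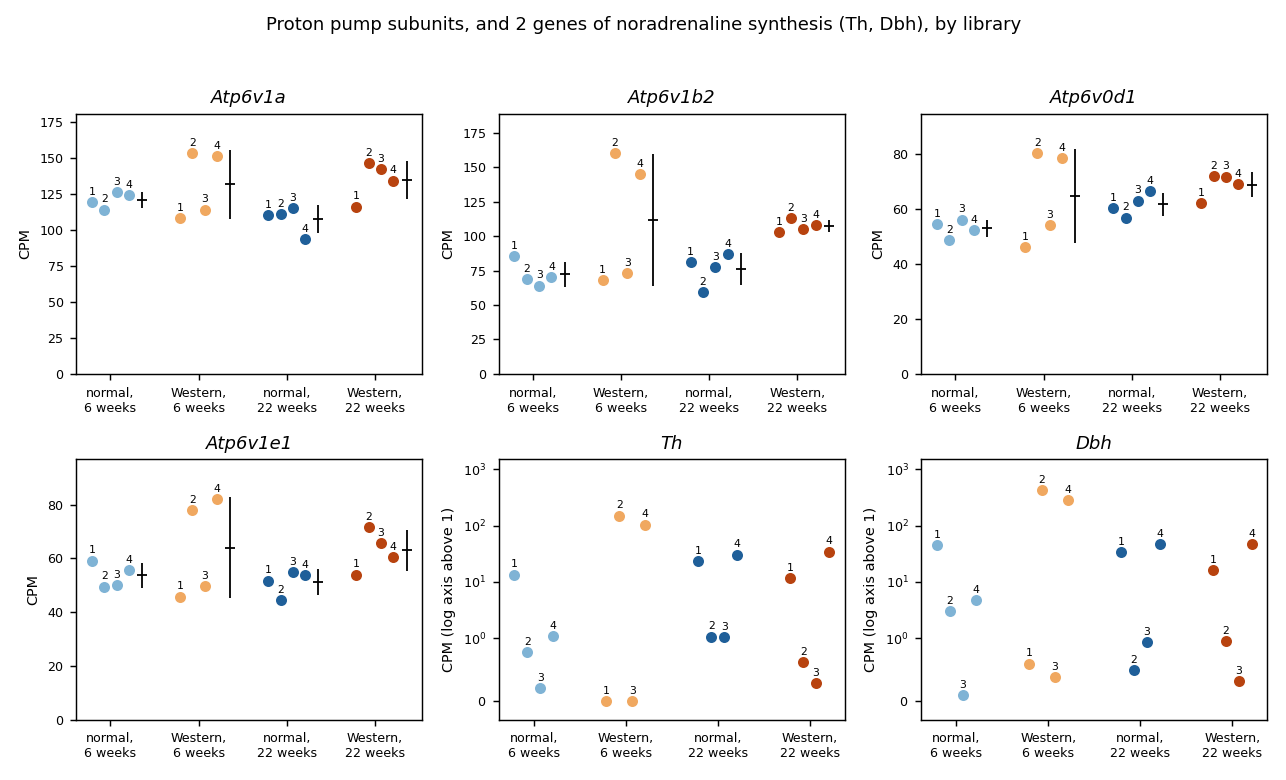
CPM by library of the pump genes Atp6v1a, Atp6v1b2, Atp6v0d1 and Atp6v1e1 and of the nerve genes Th and Dbh (log axis, linear near 0). Bars mark the group mean ± SD (n = 4) in the panels of the pump genes only. AS6W 2 and AS6W 4 are the highest libraries of the 6 week groups in all 6 panels, at 150 and 104 CPM for Th against at most 13.5 CPM in the other 6 week libraries.

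Between the times, the rotor subunit Atp6v1d (chr12:78840725-78861638) and the stalk subunit Atp6v1g1 (chr4:63544772-63550750) fell on both diets. Atp6v1d measured 52, 48.6, 46.2 and 49.8 CPM in Sham6W and 41.2, 53.2, 39.9 and 51.8 CPM in AS6W at 6 weeks. At 22 weeks Atp6v1d measured 20.2, 10.6, 24.1 and 23.1 CPM in Sham22W and 23.5, 31.4, 24.7 and 23.7 CPM in AS22W, so that all 22 week libraries lay below all 6 week libraries. Its time difference was -1.33 ± 0.20 (edgeR adjusted p = 7.46e-05) on the normal and -0.85 ± 0.20 (edgeR adjusted p = 0.00279) on the Western diet. With the GC correction the value was -0.81 ± 0.19 (edgeR adjusted p = 0.00473) on the normal and -0.37 ± 0.19 (edgeR adjusted p = 0.159) on the Western diet, so the call held on the normal diet and was lost on the Western diet. Atp6v1g1 measured 35.2, 32.4, 40.6 and 35.1 CPM in Sham6W and 32, 37.2, 31.7 and 44.6 CPM in AS6W at 6 weeks. At 22 weeks Atp6v1g1 measured 21.9, 20.5, 24.3 and 21.5 CPM in Sham22W and 25.6, 30.2, 27.2 and 25.6 CPM in AS22W, again without overlap between the times on either diet. Its time difference was -0.70 ± 0.12 (edgeR adjusted p = 1.99e-04) on the normal and -0.42 ± 0.12 (edgeR adjusted p = 0.00877) on the Western diet, and with the GC correction -0.63 ± 0.11 (edgeR adjusted p = 5.09e-04) and -0.40 ± 0.11 (edgeR adjusted p = 0.0125). Without AS6W 2 and AS6W 4 the Western value was −0.23 (edgeR adjusted p = 0.132). The other 6 subunits did not pass in either time comparison without the GC correction. With it, Atp6v1h was called higher and Atp6v1f lower on both diets, and Atp6v1a higher on the Western diet.

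In the V0 sector, which holds the proton path, 6 of 7 subunits were positive for diet at 22 weeks, with a median of 0.18, and none passed. The widest differences were in Atp6v0d2 (chr4:19876841-19922605), an isoform of the subunit that joins the rotor to the proteolipid ring, known from mouse osteoclasts and macrophages. At 6 weeks Atp6v0d2 measured 2.55, 0.61, 5.37 and 1.01 CPM in Sham6W and 12.6, 1.65, 2.5 and 2.71 CPM in AS6W. AS6W 1, the library high in thymocyte genes, stood alone at 12.6 CPM, and the difference of 1.04 ± 0.68 (edgeR adjusted p = 0.661) became −0.05 without it. At 22 weeks Atp6v0d2 measured 15, 5.22, 14.2 and 5.72 CPM in Sham22W and 30.6, 23, 35.4 and 26.2 CPM in AS22W. Every AS22W library was above every Sham22W library, which themselves fell into a pair near 15 and a pair near 5 CPM, and the difference was 1.52 ± 0.67 (edgeR adjusted p = 0.318). Its SE was the largest of the members in this comparison.

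Between the times Atp6v0d2 rose by 2.08 ± 0.69 (edgeR adjusted p = 0.0224) on the normal and by 2.56 ± 0.70 (edgeR adjusted p = 0.00773) on the Western diet, with GC-corrected values of 2.68 ± 0.71 (edgeR adjusted p = 0.00993) and 3.12 ± 0.72 (edgeR adjusted p = 0.00525). The times overlapped on the normal diet, where Sham22W 2 at 5.22 CPM lay below Sham6W 3 at 5.37 CPM. The normal-diet call was lost without Sham6W 2, Sham6W 4, Sham22W 1 or Sham22W 3, with edgeR adjusted p between 0.0537 and 0.0629, and the Western call without AS6W 2 and AS6W 4 (edgeR adjusted p = 0.0878). Trem2, a receptor of lipid-laden macrophages, measured 1.9, 1.02, 4.5 and 1.25 CPM in Sham6W and 6.17, 2.31, 2.06 and 2.74 CPM in AS6W at 6 weeks. At 22 weeks Trem2 measured 28.9, 13.4, 25.1 and 10.9 CPM in Sham22W and 53.2, 41.6, 54.2 and 43 CPM in AS22W. Both genes were highest in AS6W 1 among the 6 week libraries and higher in Sham22W 1 and 3 than in Sham22W 2 and 4. Of the other lipid-laden macrophage genes, Gpnmb, Spp1 and Lgals3 shared both features and Fabp5 the order within Sham22W alone. Cd9 and Cd36 shared neither, with Cd36 at 206, 220, 406 and 294 CPM in Sham22W. A link between Atp6v0d2 and this list was not tested. Of 6 osteoclast genes, Calcr, Dcstamp, Ocstamp and Oscar were at or near 0, with at most 0.0828, 0.723, 0.836 and 1.08 CPM in any library. Acp5 and Nfatc1 were expressed throughout, and the list summed to 84.9 to 124 CPM in Sham6W, 76.6 to 124 in AS6W, 103 to 173 in Sham22W and 136 to 184 CPM in AS22W. Acp5 rose between the times on the Western diet by 0.95 ± 0.23 (edgeR adjusted p = 0.00375), with a GC-corrected value of 0.27 ± 0.22 (edgeR adjusted p = 0.389).

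Its paralog Atp6v0d1 (chr8:105524465-105566047), the form present in most cells, measured 54.5, 48.7, 56.1 and 52.4 CPM in Sham6W and 46.2, 80.2, 54 and 78.3 CPM in AS6W at 6 weeks. AS6W 2 and AS6W 4 were again the high libraries, and the difference of 0.29 ± 0.15 (edgeR adjusted p = 0.514) became −0.08 without them. At 22 weeks Atp6v0d1 measured 60.4, 56.8, 63 and 66.5 CPM in Sham22W and 62.2, 72, 71.7 and 69 CPM in AS22W. The diets overlapped, at 0.16 ± 0.15 (edgeR adjusted p = 0.688), and neither time comparison passed. Atp6v0b (chr4:117884326-117887333), a proteolipid of the rotor ring, measured 44.3, 45.2, 49.9 and 47.9 CPM in Sham6W and 38.3, 57.4, 40.8 and 54.7 CPM in AS6W at 6 weeks. At 22 weeks Atp6v0b measured 45, 57.6, 48.5 and 63 CPM in Sham22W and 67.6, 69.6, 80.2 and 70.4 CPM in AS22W, with every AS22W library above every Sham22W library. Its diet difference was 0.43 ± 0.14 (edgeR adjusted p = 0.165). Between the times it rose on the Western diet by 0.59 ± 0.14 (edgeR adjusted p = 0.0027), and with the GC correction the sign turned, to -0.09 ± 0.13 (edgeR adjusted p = 0.649). Its normal-diet value was 0.19 ± 0.14 (edgeR adjusted p = 0.261), and with the correction it passed as lower, at -0.45 ± 0.13 (edgeR adjusted p = 0.0183).

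Atp6v0e (chr17:26663231-26699647), a small membrane subunit, measured 77.7, 78.7, 81 and 48 CPM in Sham6W and 60.8, 66.6, 63.2 and 74.4 CPM in AS6W at 6 weeks. At 22 weeks Atp6v0e measured 54.3, 48.7, 54.8 and 57.1 CPM in Sham22W and 64.9, 66.9, 77.1 and 65.1 CPM in AS22W. The diets did not overlap at 22 weeks, at 0.35 ± 0.14 (edgeR adjusted p = 0.259). On the normal diet it fell between the times by 0.41 on the log2 scale (edgeR adjusted p = 0.0244). Sham6W 4 at 48 CPM was below every Sham22W library. The call was lost without Sham6W 1, 2 or 3 or Sham22W 2, with edgeR adjusted p from 0.0666 to 0.0849, and with the GC correction, at -0.07 ± 0.14 (edgeR adjusted p = 0.728). It was also lost with all loci of the gene summed, at −0.15 (edgeR adjusted p = 0.304), and with the compared groups alone (0.0599).

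The a subunits form the stationary side of the proton path and guide the pump to its membrane. Atp6v0a1 (chr11:101009452-101067142, a locus that also names Mir6928) measured 101, 68.8, 56.9 and 92.5 CPM in Sham6W and 88.3, 102, 88.1 and 140 CPM in AS6W at 6 weeks. At 22 weeks Atp6v0a1 measured 117, 114, 72.1 and 67.6 CPM in Sham22W and 101, 118, 85.2 and 90.6 CPM in AS22W. The groups overlapped at both times, with differences of 0.39 ± 0.22 (edgeR adjusted p = 0.588) and 0.09 ± 0.22 (edgeR adjusted p = 0.907). Atp6v0a2 (chr5:124628576-124724455) measured 65.5, 92.2, 90.3 and 92 CPM in Sham6W and 69.6, 92.6, 64.6 and 74.1 CPM in AS6W at 6 weeks. At 22 weeks Atp6v0a2 measured 69.1, 81.2, 85.5 and 102 CPM in Sham22W and 87, 96.7, 110 and 89.9 CPM in AS22W. Sham6W 1 was low, the diets overlapped at both times, and the differences were -0.18 ± 0.15 (edgeR adjusted p = 0.757) and 0.18 ± 0.15 (edgeR adjusted p = 0.63). The ring proteolipid Atp6v0c (chr17:24163866-24169677) ranged over 28.5 to 81.4 CPM in Sham6W and had 1 high library, Sham22W 2 at 119 CPM. It was the 1 pump gene with a negative diet difference at 22 weeks, at -0.09 ± 0.30 (edgeR adjusted p = 0.933).

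Both accessory proteins, which help the pump to assemble, were higher without overlap in AS22W and did not pass. Atp6ap2 (chrX:12587801-12617049), also known as the prorenin receptor, had the lowest p of all members at 6 weeks. At 6 weeks Atp6ap2 measured 37.9, 35.2, 38.4 and 41.8 CPM in Sham6W and 42.6, 58.6, 43.6 and 57.3 CPM in AS6W. All AS6W libraries were above all Sham6W libraries, AS6W 2 and AS6W 4 the most, and the difference of 0.40 ± 0.11 (edgeR adjusted p = 0.195) became 0.17 (edgeR adjusted p = 0.652) without these 2 libraries. At 22 weeks Atp6ap2 measured 43.7, 34.3, 42 and 40.1 CPM in Sham22W and 47.5, 45.9, 49.6 and 46.6 CPM in AS22W, with a difference of 0.24 ± 0.11 (edgeR adjusted p = 0.349). Atp6ap1 (chrX:74297097-74304721) ranged over 60 to 70.4 CPM in Sham22W and 70.5 to 82.7 CPM in AS22W, at 0.21 ± 0.10 (edgeR adjusted p = 0.375). Neither passed in the time comparisons, and with the GC correction Atp6ap2 was called higher on both diets.

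Of the 6 membrane proteins, 5 were positive for diet at 22 weeks (median 0.26) and none passed. Lamp1 (chr8:13159161-13175338), a main glycoprotein of the lysosomal membrane, measured 465, 435, 455 and 442 CPM in Sham6W and 391, 404, 394 and 454 CPM in AS6W at 6 weeks. At 22 weeks Lamp1 measured 422, 375, 406 and 356 CPM in Sham22W and 500, 524, 505 and 483 CPM in AS22W. At 22 weeks every AS22W library was above every Sham22W library, at 0.37 ± 0.08 (edgeR adjusted p = 0.0804), while at 6 weeks the difference was -0.13 ± 0.08 (edgeR adjusted p = 0.659) with overlap. DESeq2 called the 22 week difference (adjusted p = 9.67e-04). Between the times Lamp1 rose on the Western diet by 0.29 ± 0.08 (edgeR adjusted p = 0.0108), and the GC-corrected value was -0.01 ± 0.08 (edgeR adjusted p = 0.957). The normal-diet value was -0.21 ± 0.08 (edgeR adjusted p = 0.0574), and with the correction it passed as lower, at -0.45 ± 0.08 (edgeR adjusted p = 6.38e-04). The Lamp1 locus overlaps the annotated gene Grtp1, and the strand used in counting is not given.

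Lamp2 (chrX:38401357-38456454), its paralog with a role in chaperone-mediated autophagy, measured 225, 209, 229 and 219 CPM in Sham6W and 239, 233, 238 and 272 CPM in AS6W at 6 weeks. At 22 weeks Lamp2 measured 125, 114, 134 and 127 CPM in Sham22W and 155, 165, 158 and 139 CPM in AS22W. Western libraries were above normal-diet libraries at both times without overlap, at 0.15 ± 0.08 (edgeR adjusted p = 0.564) and 0.30 ± 0.08 (edgeR adjusted p = 0.123). DESeq2 called the latter (adjusted p = 0.0191). Between the times Lamp2 fell by 0.82 on the normal (edgeR adjusted p = 2.40e-06) and by 0.67 on the Western diet on the log2 scale (edgeR adjusted p = 1.71e-05). With the GC correction these values were -0.02 ± 0.07 (edgeR adjusted p = 0.845) and 0.11 ± 0.07 (edgeR adjusted p = 0.257), so both calls were lost and the sign turned on the Western diet.

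Cd63 (chr10:128900989-128912822), a tetraspanin of late endosomes, measured 54, 56, 69.1 and 64.9 CPM in Sham6W and 64, 52, 60.2 and 56.2 CPM in AS6W at 6 weeks. At 22 weeks Cd63 measured 94.8, 84.3, 90.7 and 65.5 CPM in Sham22W and 107, 79.5, 106 and 97.3 CPM in AS22W, and the diets overlapped. It rose by 0.46 ± 0.13 (edgeR adjusted p = 0.00946) on the normal and by 0.75 ± 0.13 (edgeR adjusted p = 3.12e-04) on the Western diet. With the GC correction the direction turned, to -0.42 ± 0.12 (edgeR adjusted p = 0.0192) and -0.14 ± 0.12 (edgeR adjusted p = 0.448), and the normal-diet value passed as lower. Scarb2 (chr5:92441314-92506833), which carries glucocerebrosidase to the lysosome, had diet differences of -0.01 ± 0.09 (edgeR adjusted p = 0.992) at 6 and -0.03 ± 0.09 (edgeR adjusted p = 0.921) at 22 weeks. Its time differences were 0.13 ± 0.09 (edgeR adjusted p = 0.25) and 0.11 ± 0.09 (edgeR adjusted p = 0.36), and with the GC correction it was called higher on both diets, at 0.35 ± 0.08 (edgeR adjusted p = 0.00467) and 0.29 ± 0.08 (edgeR adjusted p = 0.0176).

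The paralogs Laptm4a and Laptm5 differ in where they are expressed, the former broadly and the latter mainly in blood cells. Laptm4a (chr12:8921664-8938742) measured 288, 283, 312 and 317 CPM in Sham6W and 279, 277, 293 and 320 CPM in AS6W at 6 weeks. At 22 weeks Laptm4a measured 255, 237, 242 and 215 CPM in Sham22W and 255, 259, 269 and 261 CPM in AS22W. The diets overlapped, and on the normal diet it fell between the times by 0.34 on the log2 scale (edgeR adjusted p = 0.00344; GC-corrected -0.32 ± 0.08 (edgeR adjusted p = 0.00516)). Laptm5 (chr4:130913125-130936141) measured 22.3, 58.8, 21.9 and 17.7 CPM in Sham6W and 55.8, 25.9, 76.9 and 22.3 CPM in AS6W at 6 weeks. At 22 weeks Laptm5 measured 92.3, 50.8, 110 and 165 CPM in Sham22W and 166, 116, 148 and 130 CPM in AS22W. The high libraries were Sham6W 2 and Sham22W 4, which were also high in the B cell genes, and AS6W 1 and AS6W 3, high in Rag1 and in Adgre1. Laptm5 rose by 1.79 ± 0.45 (edgeR adjusted p = 0.00448) and 1.63 ± 0.45 (edgeR adjusted p = 0.00835) between the times, with GC-corrected values of 1.13 ± 0.45 (edgeR adjusted p = 0.0657) and 0.95 ± 0.45 (edgeR adjusted p = 0.126) that did not pass, and the Western call was also lost without AS6W 2 and AS6W 4 (edgeR adjusted p = 0.107).

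Galc was the 1 member that passed a diet test. Galc (chr12:98202294-98259459) encodes galactosylceramidase, which removes galactose from galactosylceramide, a lipid of myelin and kidney. At 22 weeks Galc measured 14.5, 14, 22.4 and 21.4 CPM in Sham22W and 29.8, 33, 32 and 33.7 CPM in AS22W. The AS22W libraries lay close together and above all Sham22W libraries, among which 1 and 2 were lower than 3 and 4. It rose 1.78-fold, at 0.83 ± 0.14 (edgeR adjusted p = 0.0317) on the log2 scale. At 6 weeks Galc measured 27.4, 30.4, 26.6 and 27.4 CPM in Sham6W and 27.5, 32.1, 31.6 and 33.5 CPM in AS6W, with overlap and a difference of 0.16 ± 0.14 (edgeR adjusted p = 0.781), and the diet effects at the 2 times differed by 0.67 ± 0.20 (edgeR adjusted p = 0.189), which did not pass. Leaving out single libraries kept the fold between 0.74 and 0.98 on the log2 scale and ended the call without Sham22W 1 (edgeR adjusted p = 0.0721), Sham22W 2 (0.102), AS22W 1 (0.0566), AS22W 2 (0.0741), AS22W 3 (0.0638) or AS22W 4 (0.0561). It also missed the threshold with no filter on low values (edgeR adjusted p = 0.0553) and when only the 8 libraries of 22 weeks were fitted (0.241). Beside Galc, whose substrate is a myelin lipid, the 5 nerve and Schwann cell markers summed to 41.6 to 169 CPM in Sham22W. In AS22W they summed to 10.5 to 171 CPM. The 4 brown fat genes summed to 380, 497, 1111 and 1038 CPM in Sham22W, where libraries 1 and 2 were also lower than 3 and 4. In AS22W the brown fat genes summed to 1785, 3002, 1493 and 1270 CPM. A link between Galc and either list was not tested.

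On the normal diet Galc fell between the times by 0.63 on the log2 scale (edgeR adjusted p = 0.00193), with all Sham22W libraries below all Sham6W libraries. The transcript has a GC content of 38.3%, and with the GC correction the value was 0.19 ± 0.13 (edgeR adjusted p = 0.311). On the Western diet the time difference was 0.04 ± 0.14 (edgeR adjusted p = 0.834), and with the GC correction 0.85 ± 0.14 (edgeR adjusted p = 4.30e-04).

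**Figure D5:**
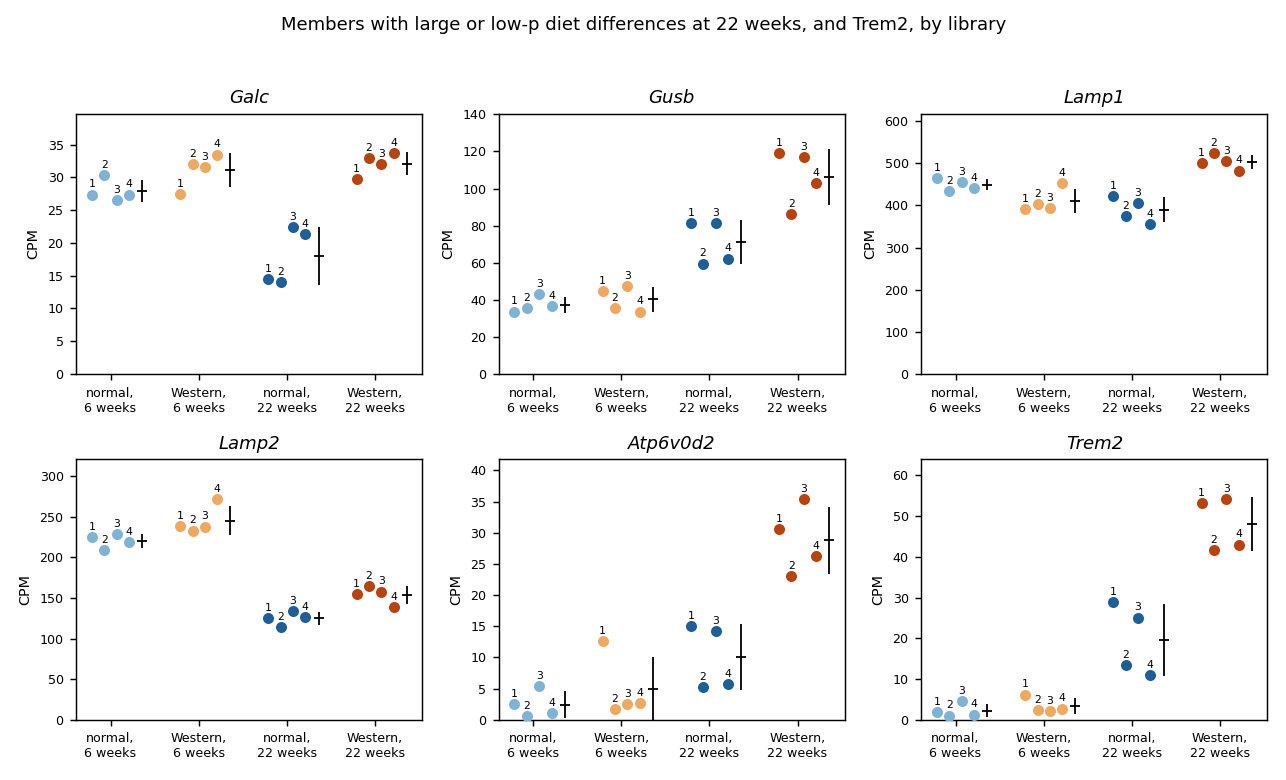
CPM by library of Galc, Gusb, Lamp1, Lamp2, Atp6v0d2 and the macrophage gene Trem2, with bars for the group mean ± SD (n = 4). In all 6 panels the 4 AS22W libraries lie above the 4 Sham22W libraries, and of the members shown only Galc passed (29.8 to 33.7 against 14 to 22.4 CPM).

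The other 8 glycosidases did not pass for diet, and 7 of them were positive at 22 weeks. Gusb (chr5:129989011-130003049), the β-glucuronidase that trims glycosaminoglycans, measured 81.3, 59.5, 81.3 and 62.2 CPM in Sham22W and 119, 86.4, 117 and 103 CPM in AS22W at 22 weeks. Every AS22W library was above every Sham22W library, at 0.58 ± 0.15 (edgeR adjusted p = 0.0987), and DESeq2 called the difference (adjusted p = 0.0156). At 6 weeks Gusb measured 33.6, 35.6, 43.1 and 36.6 CPM in Sham6W and 44.8, 35.4, 47.2 and 33.6 CPM in AS6W, with overlap. Gusb rose between the times by 0.93 ± 0.15 (edgeR adjusted p = 1.24e-04) on the normal and by 1.40 ± 0.15 (edgeR adjusted p = 4.09e-06) on the Western diet, and by 0.63 ± 0.15 (edgeR adjusted p = 0.00537) and 1.05 ± 0.15 (edgeR adjusted p = 2.05e-04) with the GC correction. Within AS22W and within Sham22W, libraries 1 and 3 were the highest. The macrophage list summed to 2044, 1593, 1994 and 1933 CPM in AS22W and to 1350, 829, 1435 and 1341 CPM in Sham22W. In that list Sham22W 4 was close to Sham22W 1, while for Gusb they measured 62.2 and 81.3 CPM. The 7 lipid-laden macrophage genes summed to 1235, 724, 1238 and 732 CPM in Sham22W, where libraries 1 and 3 were also the highest. In AS22W these genes summed to 1935, 1953, 2109 and 1861 CPM, in another order than Gusb. A link between Gusb and either list was not tested.

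Man2b1 (chr8:85083270-85098282), an α-mannosidase acting on N-glycans, measured 62.7, 80.8, 72.9 and 67.4 CPM in Sham6W and 83.5, 68.2, 95 and 69 CPM in AS6W at 6 weeks. At 22 weeks Man2b1 measured 171, 130, 164 and 150 CPM in Sham22W and 200, 173, 193 and 176 CPM in AS22W. The diets did not overlap at 22 weeks (0.27 ± 0.12 (edgeR adjusted p = 0.333)), and on each diet all 22 week libraries were above all 6 week libraries. It rose by 1.12 ± 0.12 (edgeR adjusted p = 4.89e-06) and 1.23 ± 0.13 (edgeR adjusted p = 2.58e-06), or by 0.64 ± 0.12 (edgeR adjusted p = 0.00111) and 0.71 ± 0.12 (edgeR adjusted p = 6.84e-04) with the GC correction. Naglu (chr11:101070012-101077672), which removes N-acetylglucosamine from heparan sulfate, had the largest rise with time of the glycosidases without the GC correction, while with it Gusb and Galc were above it on the Western diet. At 6 weeks Naglu measured 13.5, 15.4, 16.1 and 16.4 CPM in Sham6W and 13.6, 14.6, 15.2 and 11.4 CPM in AS6W. At 22 weeks Naglu measured 57.5, 49.3, 53.7 and 41.3 CPM in Sham22W and 39.7, 40.6, 62.3 and 52.8 CPM in AS22W, far above every 6 week library and overlapping between the diets. It rose by 1.72 ± 0.15 (edgeR adjusted p = 8.08e-07) and 1.83 ± 0.16 (edgeR adjusted p = 5.68e-07), and by 0.66 ± 0.13 (edgeR adjusted p = 0.00139) and 0.80 ± 0.13 (edgeR adjusted p = 4.73e-04) with the GC correction.

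Neu1 (chr17:34931253-34935921), a sialidase, measured 13.3, 16.3, 14.5 and 16.4 CPM in Sham6W and 15.1, 16.5, 16.1 and 16.1 CPM in AS6W at 6 weeks. At 22 weeks Neu1 measured 32.5, 26.3, 31.4 and 28.4 CPM in Sham22W and 36.6, 26.2, 37.9 and 35.9 CPM in AS22W. AS22W 2 was low within its group, and all 22 week libraries were above all 6 week libraries. It rose by 0.97 ± 0.12 (edgeR adjusted p = 1.47e-05) and 1.10 ± 0.12 (edgeR adjusted p = 5.81e-06), and by 0.58 ± 0.12 (edgeR adjusted p = 0.00244) and 0.65 ± 0.12 (edgeR adjusted p = 0.00133) with the GC correction. Fuca1 (chromosome 4, counted at a locus that may hold reads of a neighbouring gene), an α-fucosidase, measured 60.9, 60.2, 68.3 and 68.8 CPM in Sham6W and 59.6, 57.3, 50.6 and 66.9 CPM in AS6W at 6 weeks. At 22 weeks Fuca1 measured 101, 98.8, 100 and 108 CPM in Sham22W and 97.6, 138, 118 and 99.8 CPM in AS22W. The times did not overlap, and it rose by 0.66 ± 0.11 (edgeR adjusted p = 2.64e-04) and 0.95 ± 0.11 (edgeR adjusted p = 1.15e-05). With the GC correction it passed on the Western diet, at 0.48 ± 0.10 (edgeR adjusted p = 0.00385), and not on the normal diet, at 0.24 ± 0.10 (edgeR adjusted p = 0.0894).

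Glb1 (chr9:114401076-114474377, a locus that also names Tmppe), the β-galactosidase used as a stain for senescent cells, measured 40.7, 41.3, 45.7 and 45.9 CPM in Sham6W and 46.3, 43.3, 40.6 and 43.8 CPM in AS6W at 6 weeks. At 22 weeks Glb1 measured 62, 51.3, 64.8 and 62.2 CPM in Sham22W and 70.1, 55.4, 65.6 and 62.9 CPM in AS22W, above every 6 week library. It rose by 0.47 ± 0.10 (edgeR adjusted p = 9.65e-04) and 0.55 ± 0.10 (edgeR adjusted p = 3.15e-04), while the GC-corrected values were of the opposite sign, at -0.18 ± 0.09 (edgeR adjusted p = 0.168) and -0.13 ± 0.09 (edgeR adjusted p = 0.308). Idua (chr5:108660331-108684552), an iduronidase of dermatan and heparan sulfate, measured 16.5, 21.4, 18.3 and 22.6 CPM in Sham6W and 15.1, 15.7, 26.2 and 15.1 CPM in AS6W at 6 weeks. At 22 weeks Idua measured 33.5, 32.1, 25 and 24.6 CPM in Sham22W and 25.4, 30, 32 and 33.1 CPM in AS22W, with AS6W 3 overlapping AS22W. It rose by 0.55 ± 0.18 (edgeR adjusted p = 0.0224) and 0.74 ± 0.18 (edgeR adjusted p = 0.00412), and the GC-corrected values of 0.07 ± 0.18 (edgeR adjusted p = 0.8) and 0.21 ± 0.18 (edgeR adjusted p = 0.406) did not pass. The normal-diet call was lost without Sham6W 1, Sham6W 3, Sham22W 1 or Sham22W 2, with edgeR adjusted p from 0.0567 to 0.0699, and the Western call without AS6W 2 and AS6W 4 (0.0724). The Idua locus overlaps the annotated genes Slc26a1 and Dgkq.

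Manba (chr3:135485611-135571404), a β-mannosidase, measured 19.9, 22.5, 25.2 and 22.6 CPM in Sham6W and 24.2, 22.1, 25.6 and 22.4 CPM in AS6W at 6 weeks. At 22 weeks Manba measured 26.9, 26.1, 27.5 and 23.2 CPM in Sham22W and 29, 32.6, 31.4 and 26 CPM in AS22W. Between the times it rose on the Western diet by 0.33 ± 0.10 (edgeR adjusted p = 0.0163) without overlap, and by 0.35 ± 0.10 (edgeR adjusted p = 0.0182) with the GC correction. On the normal diet the value was 0.20 ± 0.10 (edgeR adjusted p = 0.123), and 0.26 ± 0.10 (edgeR adjusted p = 0.0561) with the correction. Without AS6W 2 and AS6W 4 the Western call was lost (edgeR adjusted p = 0.151). In all, 8 of 9 glycosidases rose on the Western and 7 rose and 1 fell on the normal diet, with medians of 0.95 and 0.66, where 21.9% and 24% of all loci passed as higher. With the GC correction 7 and 4 were called higher and none lower, with medians of 0.65 and 0.26, where 13.6% and 16.2% of loci were called higher.

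None of the 5 sulfatases passed for diet, and 4 were positive at 22 weeks. Arsa (chr15:89472476-89477425), which removes sulfate from the myelin lipid sulfatide, had the lowest p of all members in both time comparisons. At 6 weeks Arsa measured 22, 27.1, 27.4 and 27.5 CPM in Sham6W and 24.8, 25.5, 27.8 and 28.2 CPM in AS6W. At 22 weeks Arsa measured 68.9, 58.7, 65.4 and 61.3 CPM in Sham22W and 68.1, 77.5, 70.5 and 66.8 CPM in AS22W, with overlap between the diets and none between the times. It rose by 1.29 ± 0.09 (edgeR adjusted p = 1.80e-07) and 1.41 ± 0.09 (edgeR adjusted p = 9.90e-08), and by 0.58 ± 0.08 (edgeR adjusted p = 1.41e-04) and 0.68 ± 0.08 (edgeR adjusted p = 6.53e-05) with the GC correction. Galns (chr8:122578242-122611463), a sulfatase of keratan and chondroitin sulfate, measured 5.34, 6.36, 5.12 and 3.55 CPM in Sham6W and 5.21, 4.97, 5.61 and 4.59 CPM in AS6W at 6 weeks. At 22 weeks Galns measured 11.3, 7.32, 13.2 and 10.2 CPM in Sham22W and 15.8, 10.7, 14.9 and 13.1 CPM in AS22W, again above every 6 week library. It rose by 1.04 ± 0.20 (edgeR adjusted p = 5.89e-04) and 1.42 ± 0.20 (edgeR adjusted p = 4.84e-05), and with the GC correction passed on the Western diet, at 0.77 ± 0.20 (edgeR adjusted p = 0.0109), and not on the normal diet, at 0.42 ± 0.20 (edgeR adjusted p = 0.12).

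Arsb (chr13:93771630-93943016), the sulfatase of dermatan and chondroitin sulfate, measured 20.5, 27.5, 34.7 and 24 CPM in Sham22W and 43, 40.9, 28 and 41.3 CPM in AS22W at 22 weeks. AS22W 3 was low, and Sham22W 3 was above it, so the groups overlapped, at 0.52 ± 0.15 (edgeR adjusted p = 0.137). DESeq2 called this difference (adjusted p = 0.0356). At 6 weeks Arsb measured 39.2, 41.5, 37.6 and 37 CPM in Sham6W and 38, 38.5, 35.6 and 35.7 CPM in AS6W, and it fell on the normal diet by 0.54 on the log2 scale between the times (edgeR adjusted p = 0.00874; GC-corrected -0.72 ± 0.16 (edgeR adjusted p = 0.00278)). On the Western diet the time difference was 0.05 ± 0.15 (edgeR adjusted p = 0.811), and -0.18 ± 0.15 (edgeR adjusted p = 0.424) with the correction.

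Ids (chrX:70343069-70375106), which removes sulfate from iduronic acid, measured 133, 113, 120 and 121 CPM in Sham6W and 109, 162, 117 and 159 CPM in AS6W at 6 weeks. At 22 weeks Ids measured 89.2, 71.2, 45 and 78 CPM in Sham22W and 92.3, 48.4, 87.5 and 88.7 CPM in AS22W. AS6W 2 and AS6W 4 were high and AS22W 2 was low, and the times did not overlap on either diet. Ids fell by 0.78 (edgeR adjusted p = 0.00842) and 0.79 (edgeR adjusted p = 0.00866) on the log2 scale. The GC-corrected values of -0.17 ± 0.22 (edgeR adjusted p = 0.588) and -0.21 ± 0.22 (edgeR adjusted p = 0.507) did not pass, and without AS6W 2 and AS6W 4 the Western value was −0.51 (edgeR adjusted p = 0.141). Sgsh (chr11:119343425-119355536), the sulfamidase of heparan sulfate, measured 23.6, 25.3, 25.9 and 24 CPM in Sham6W and 24.1, 21.4, 22.9 and 19.2 CPM in AS6W at 6 weeks. At 22 weeks Sgsh measured 47.7, 41.5, 41.4 and 44 CPM in Sham22W and 38.6, 13.5, 40.4 and 36.7 CPM in AS22W. It was the 1 member with every AS22W library below every Sham22W library, at -0.43 ± 0.23 (edgeR adjusted p = 0.423), with AS22W 2 far below the rest at 13.5 CPM. It rose on the normal diet by 0.82 ± 0.23 (edgeR adjusted p = 0.00954), and the GC-corrected value was 0.13 ± 0.23 (edgeR adjusted p = 0.706).

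Hgsnat, Tpp1 and Grn were all positive for diet at 22 weeks and did not pass. Grn (chr11:102430315-102436809), progranulin, a secreted protein that is cut into granulins in the lysosome, measured 90.9, 94.3, 91 and 72.6 CPM in Sham6W and 98.2, 86.9, 108 and 90.1 CPM in AS6W at 6 weeks. At 22 weeks Grn measured 166, 136, 192 and 150 CPM in Sham22W and 188, 162, 195 and 200 CPM in AS22W. Every 22 week library was above every 6 week library on its diet, and Grn rose by 0.88 ± 0.12 (edgeR adjusted p = 3.34e-05) and 0.96 ± 0.12 (edgeR adjusted p = 1.81e-05). The GC-corrected values of 0.22 ± 0.12 (edgeR adjusted p = 0.177) and 0.26 ± 0.12 (edgeR adjusted p = 0.115) did not pass. Tpp1 (chr7:105744811-105752235), a tripeptidyl peptidase, measured 63.5, 71.3, 68.8 and 64.2 CPM in Sham6W and 58.4, 59.8, 57 and 59 CPM in AS6W at 6 weeks. At 22 weeks Tpp1 measured 74.2, 77, 65.2 and 82.5 CPM in Sham22W and 76.2, 77.7, 104 and 96.9 CPM in AS22W. At 6 weeks every AS6W library was below every Sham6W library, at -0.19 ± 0.10 (edgeR adjusted p = 0.559), while at 22 weeks the groups overlapped, at 0.25 ± 0.10 (edgeR adjusted p = 0.296). Tpp1 rose on the Western diet by 0.60 ± 0.11 (edgeR adjusted p = 3.22e-04), and by 0.57 ± 0.11 (edgeR adjusted p = 0.00115) with the GC correction.

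Hgsnat (chr8:25942467-25976753), which acetylates heparan sulfate within the lysosome, measured 46.8, 39.8, 42.5 and 40.7 CPM in Sham6W and 40.4, 40.7, 43.1 and 45 CPM in AS6W at 6 weeks. At 22 weeks Hgsnat measured 48.1, 40.8, 55.4 and 45.5 CPM in Sham22W and 46.6, 52.7, 53.5 and 54.1 CPM in AS22W. On the Western diet all 22 week libraries were above all 6 week libraries, and it rose by 0.29 ± 0.10 (edgeR adjusted p = 0.025). The call was lost with the GC correction, at 0.11 ± 0.09 (edgeR adjusted p = 0.406). It was also lost without AS6W 1 (edgeR adjusted p = 0.0614), AS6W 2 (0.0589), AS22W 3 (0.0644) or AS22W 4 (0.0601). Without both AS6W 2 and AS6W 4 the value was 0.31 (edgeR adjusted p = 0.085), no smaller than before but with fewer libraries in AS6W.

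The sorting receptors were positive for diet at 22 weeks, from 0.19 to 0.27. Igf2r (chr17:12682406-12770632), the cation-independent mannose 6-phosphate receptor, which also binds the growth factor IGF2, measured 173, 177, 199 and 194 CPM in Sham6W and 192, 184, 180 and 197 CPM in AS6W at 6 weeks. At 22 weeks Igf2r measured 224, 225, 219 and 206 CPM in Sham22W and 283, 265, 273 and 232 CPM in AS22W. The diets did not overlap at 22 weeks, at 0.27 ± 0.08 (edgeR adjusted p = 0.152), and DESeq2 called the difference (adjusted p = 0.0373). It rose between the times by 0.23 ± 0.08 (edgeR adjusted p = 0.0305) and 0.48 ± 0.08 (edgeR adjusted p = 2.65e-04), with GC-corrected values of 0.02 ± 0.08 (edgeR adjusted p = 0.849) and 0.22 ± 0.08 (edgeR adjusted p = 0.0476). The normal-diet call was lost without Sham6W 1 (edgeR adjusted p = 0.091), Sham6W 2 (0.0786), Sham22W 1 (0.071), Sham22W 2 (0.0654) or Sham22W 3 (0.0642). The locus overlaps the antisense gene Airn, and reads of the pair cannot be told apart without strand.

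M6pr (chr6:122308720-122317680), the cation-dependent receptor, measured 57.9, 62.4, 56.5 and 57 CPM in Sham6W and 53.7, 50.4, 50.3 and 61.6 CPM in AS6W at 6 weeks. At 22 weeks M6pr measured 54.8, 49.4, 59.2 and 57.7 CPM in Sham22W and 65.9, 62.5, 71 and 63.1 CPM in AS22W. The diets did not overlap at 22 weeks, at 0.25 ± 0.09 (edgeR adjusted p = 0.209). It rose on the Western diet by 0.28 ± 0.09 (edgeR adjusted p = 0.0175), and by 0.54 ± 0.08 (edgeR adjusted p = 2.56e-04) with the GC correction. The uncorrected call was lost without AS6W 2 (edgeR adjusted p = 0.0518), AS6W 3 (0.0502) or AS22W 3 (0.0622). Sort1 (chr3:108284082-108361443), sortilin, ranged over 223 to 276 CPM at 6 weeks and over 231 to 363 CPM at 22 weeks, with the highest value in AS22W 2, and passed in no comparison.

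A second list held 52 other genes of the same machinery, of which 45 were tested. At 22 weeks 40 of the 45 were positive for diet, with a median of 0.16, and 1 passed, against 46.1% of all loci positive, a median of −0.03 and 0.228% passing. Among those that did not pass, the ganglioside-degrading enzyme Hexa (0.53 ± 0.11 (edgeR adjusted p = 0.0643)), the α-galactosidase Gla (0.72 ± 0.17 (edgeR adjusted p = 0.0843)) and the membrane protein Tmem106b (0.38 ± 0.10 (edgeR adjusted p = 0.112)) had the lowest p. At 6 weeks none passed in edgeR, with 8 at an unadjusted p under 0.05, against 10.7% of all loci. The V0 subunit gene Atp6v0e2 and the assembly gene Dmxl2 were highest in the libraries high in nerve genes, with Atp6v0e2 at 6, 25, 5.94 and 18.3 CPM and Dmxl2 at 55.9, 117, 66.5 and 107 CPM in AS6W.

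Between the times 22 of these 45 genes rose and 7 fell on the Western diet, and 17 rose and 12 fell on the normal diet, where 21.9% and 21.9%, and 24% and 22.6%, of all loci passed as higher and lower. On both diets 17 rose and 5 fell, and the share of all loci called on both diets, with or without the GC correction, was not counted. The 5 were Cd68 (counted at a locus that names 8 genes), Dmxl1, Tmem106b, Vps26a and Vps35. Of the 17, Clcn7, Cln3, Gga2, Gla, Gnptg and Ostm1 were also called higher on both diets with the GC correction, and of the 5, Vps26a alone was also called lower on both. Clcn7, the chloride-proton exchanger of the lysosome, rose by 0.91 ± 0.08 (edgeR adjusted p = 5.44e-07) and 0.98 ± 0.08 (edgeR adjusted p = 3.57e-07), with GC-corrected values of 0.39 ± 0.07 (edgeR adjusted p = 0.00103) and 0.42 ± 0.07 (edgeR adjusted p = 8.97e-04). Its β subunit Ostm1 rose by 0.41 ± 0.12 (edgeR adjusted p = 0.0137) and 0.33 ± 0.12 (edgeR adjusted p = 0.0392), or by 0.63 ± 0.12 (edgeR adjusted p = 0.00126) and 0.52 ± 0.12 (edgeR adjusted p = 0.00562) with the correction. Tcirg1, the a3 form of the V0 a subunit, rose by 1.44 ± 0.19 (edgeR adjusted p = 3.01e-05) and 1.39 ± 0.19 (edgeR adjusted p = 4.29e-05), with GC-corrected values of 0.50 ± 0.18 (edgeR adjusted p = 0.0465) and 0.47 ± 0.18 (edgeR adjusted p = 0.0669). The summed macrophage list ran from 576 to 1314 CPM at 6 weeks and from 829 to 2044 CPM at 22 weeks. The part of cell makeup in these time differences was not tested.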

How the data were processed

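Aortic RNA libraries, 16 in 4 groups of 4, were analysed from a single deposited table of 70603 loci. The table gave FPKM and an estimated count per library, both deposited by the authors, per the file headers. The submitters' processing notes name cutadapt 1.9 (read trimming), FastQC (read quality) and the genome build GRCm38. For the aligner, counter, annotation and strand setting the sources used here give no name. The deposited FPKM read 0.0001 wherever the count was 0. The 3714 loci naming no gene held 0.606% of counts and were left out. One label points to the column of another replicate, so columns were matched by title.

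Loci naming a gene, with 4 or more libraries at an FPKM of at least 1, were tested with edgeR 4.0.16 (R 4.3.3) quasi-likelihood F tests on the counts, already whole numbers, with TMM factors, 4 group means, two-sided, Benjamini-Hochberg over 24091 loci. SEs came from the fold change and F. Depth limits only low genes here, since the lowest value of any member in any library was 0.61 CPM (Atp6v0d2 in Sham6W 2). No 2 columns were identical, and correlations between libraries ran from 0.9008 to 0.971.

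GC content came from the longest GENCODE M21 transcript listed for a locus, which 15684 loci (65.1%) had, and the correction took a loess curve (span 0.5) of each library against GC content as offset. It was chosen after seeing the data, as were the fit to annotated loci alone and the omission of AS6W 2 and AS6W 4. That omission leaves fewer libraries in AS6W, so a call can be lost with no smaller difference, as for Hgsnat. DESeq2 1.42.0, limma 3.58.1 on log2(FPKM + 0.5) or log2(FPKM + 1), other size factors, no filter, the compared groups alone, a replicate block, summed loci, counts divided by 4, and single omitted libraries were the other alternatives. Scripts were tested on simulated data. Figures used matplotlib 3.10.9 and tables pandas 2.3.3.

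Same-numbered libraries of different groups did not deviate together, with 24 correlations from −0.202 to 0.12 and 1 of them over 0.1, so the numbers were not taken as pairs.

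The members and all gene lists were chosen with earlier results of these data known, so list counts and medians are descriptions and no list was tested. Values per library are given for members that passed in any comparison, for the 6 of lowest p and the extremes in each diet comparison, and for paralog pairs. Other pathway genes are named where they passed or, for the diet at 22 weeks, were among the 4 of lowest p, of which 1 is not reported here. Loci that name 2 genes or overlap another gene may hold its reads.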

Additional observations from a re-analysis of the deposited data

Results flagged for a closer look

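In 15 of 172 sets of 4 libraries (43 members in 4 groups), 1 library lay far from the other 3 by Dixon's criterion for 4 values, which chance alone meets in about 1 in 20 sets, or 8.6 of these. No cause was tested for any of them.

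AS22W 2 stood apart in 4 members. Atp6v1d measured 31.4 CPM there, against 23.5 to 24.7 in the other AS22W libraries. Neu1 measured 26.2 CPM against 35.9 to 37.9, Ids 48.4 against 87.5 to 92.3, and Sgsh 13.5 against 36.7 to 40.4 CPM. The Sgsh value bears on its diet difference at 22 weeks, where AS22W was lower.

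AS22W 3 was high in Atp6v0e, at 77.1 CPM against 64.9 to 66.9, and low in Arsb, at 28 CPM against 40.9 to 43. Among Sham22W libraries, Sham22W 2 was high in Atp6v0c, at 119 CPM against 57.5 to 64.2.

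At 6 weeks AS6W 1 was high in Atp6v0d2, at 12.6 CPM against 1.65 to 2.71, AS6W 3 in Idua, at 26.2 CPM against 15.1 to 15.7, and AS6W 4 in Lamp2, at 272 CPM against 233 to 239. Sham6W 1 was low in Atp6v0a2, at 65.5 CPM against 90.3 to 92.2, and in Arsa, at 22 CPM against 27.1 to 27.5. Sham6W 2 was high in Laptm5, at 58.8 CPM against 17.7 to 22.3. Sham6W 4 was low in Atp6v0e, at 48 CPM against 77.7 to 81, and in Grn, at 72.6 CPM against 90.9 to 94.3.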

How the results depend on the processing

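Of 1325 values of single members under an alternative setting, 1214 kept direction and side of the threshold. With the direction kept, 94 lost their call and 5 gained one, and 12 changed sign. Some of the 12 had also lost their call. For the diet at 22 weeks 6 members passed in DESeq2 and 0 with no filter on low values or with the compared groups alone, and for the difference of the diet effects 1 passed in DESeq2. Without AS6W 2 and AS6W 4 the members' median was −0.06 for the diet at 6 weeks and 0.28 for the difference of the diet effects, with Atp6v1b2 at −0.03 and Atp6v0d1 at −0.08 at 6 weeks. Atp6v0d2 at 6 weeks was −0.38 without AS6W 1 and Sham6W 2.

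For time on the Western diet the median was 0.04 with limma at either pseudocount, 0.22 with upper quartile factors, and 0.21 on annotated loci with or without GC correction. On the normal diet it was −0.05 with limma at either pseudocount and 0.07 with GC correction. With GC correction the sign changed on the Western diet for Lamp2 (0.11), Atp6v0b (−0.09), Lamp1 (−0.01), Glb1 (−0.13) and Cd63 (−0.14), and on the normal diet for Galc (0.19), Glb1 (−0.18) and Cd63 (−0.42). On the Western diet Manba, M6pr, Lamp1 and Hgsnat lost their call with limma at either pseudocount and with no filter, and on the normal diet Igf2r, Idua, Glb1, Cd63 and Sgsh lost it with limma. Apart from the GC curve and the omitted libraries, the cause of these shifts was not tested.

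Leaving out single libraries, members passing ran from 0 to 0 for the diet at 6 weeks, 0 to 1 at 22 weeks, 0 to 0 for the difference of the diet effects, 22 to 25 for time on the Western and 20 to 23 on the normal diet. Medians ran from 0.02 to 0.07, 0.22 to 0.30, 0.14 to 0.22, 0.27 to 0.32 and 0.09 to 0.16 in the same order, and Atp6v0d2 at 6 weeks ran from −0.05 to 1.82. With the replicate block, 0, 1, 0, 25 and 22 members passed, and Igf2r on the normal diet lost its call (edgeR adjusted p = 0.0565). The best partner of 1 of 16 libraries carried its own number.

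Over all loci, the main test passed 68, 55 and 44 for the diet at 6 weeks, at 22 weeks and their difference, against 458, 829 and 493 in DESeq2 and 28, 26 and 0 with the replicate block. Limma at a pseudocount of 1 passed 104, 108 and 29, and at 0.5 passed 84 at 22 weeks and 29 for the difference. With no filter 12 passed at 22 weeks and 26 for the difference, and with the compared groups alone 0 at 22 weeks. Without AS6W 1 and Sham6W 2, 23 passed at 6 weeks and 1 for the difference, and without AS6W 2 and AS6W 4, 151 for the difference. Single omissions gave 30 to 74, 0 to 429 and 3 to 74, and 9538 to 10094 and 9982 to 10550 for time. With GC correction 4461 and 5168 of 15684 loci passed for time on the Western and normal diets, against 10561 and 11247 of 24091.

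With 4 libraries a group, no member with a diet difference near 0.25 on the log2 scale was called, while some differences of that size between the times were. Time on diet, age and library series cannot be told apart.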
